A study of Sus scrofa with 12 samples.

Results

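The imprinted DLK1-DIO3 locus carries one of the largest miRNA clusters of placental mammals, and 34 of the 774 miRNA entries counted in these pig livers (Sus scrofa) bear names of that cluster. Members were chosen by name alone: every annotated entry, not a predicted one, with 1 of 43 miR numbers that belong to the locus, in any letter or arm, with entries of identical counts taken once. The entries cover 24 of the 43 numbers. Of the 34 entries, 12 carry porcine names (prefix ssc) and 22 carry names from other species, in which x stands for the 5p arm, y for the 3p arm and z for an arm not assigned.

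Genes of the DLK1-DIO3 locus are expressed from one parental chromosome only. DLK1, RTL1 and DIO3 are transcribed from the paternal copy, whereas the non-coding transcripts MEG3 and its neighbours, and the miRNAs processed from them, come from the maternal copy. The miRNAs are abundant in embryo, placenta and brain and fall in most tissues after birth. In mice, loss of the part of the cluster that runs from miR-379 to miR-410 impairs the metabolic adaptation of the liver at birth. In human and mouse a first block of miRNAs, with miR-493, miR-127, miR-136 and miR-370, lies at and around RTL1, and a second, longer block runs from miR-379 to miR-656. The pig annotation (RefSeq, Sscrofa11.1) lists genes for 4 of the 24 numbers. MIR493, MIR127 and MIR136 follow DLK1 and MEG3 on chromosome 7, with MIR127 next to RTL1, and MIR381 is on a sequence not placed on a chromosome.

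Small RNA was sequenced from 12 livers of Bama and Hezuo pigs, all labelled day 15. Bama normal and Hezuo normal pigs were kept at 23 ± 2 °C, and Bama cold and Hezuo cold pigs at -15 ± 2 °C, with 3 libraries in each of the 4 groups and the normal group of each breed as its control. The listed counts per library ranged from 7184168 to 10384074. The labels number the pigs 1 to 3 within each group, so the 3 libraries of a group are from separate pigs, and they do not say what a number shared between groups means. Sex, age and litter are not given, and the whole liver was taken, so fewer cells of a type and less RNA per cell cannot be told apart.

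Of the 34 members, 13 passed the filter on low counts and could be tested, and their sequences are shown because every comparison below rests on them. The sequences are those listed in the deposited table, written 5′ to 3′ as DNA, with the seed (bases 2 to 8, which pair with target mRNAs) in capitals.
ssc-miR-127: tCGGATCCgtctgagcttggct
miR-127-y: tCGGATCCgtctgagcttggcttt
ssc-miR-136-5p: aCTCCATTtgttttgatgatgga
ssc-miR-370: gCCTGCTGgggtggaacctggt
miR-379-x: tGGTAGACtgtggaacgtagg
miR-411-x: aTAGTAGAccgtatagcgtacg
ssc-miR-411: aTGTAACAcggtccactaac
miR-299-y: tATGTGGGacggtaaaccgctt
miR-543-y: aAACATTCgcggtgcacttctt
miR-495-y: aAACAAACatggtgcacttctt
ssc-miR-381-3p: tATACAAGgacaagctctctgt
miR-154-z: aGATATTGcacggttgatctct
miR-409-y: gAATGTTGctcggtgaacccct
The 34 entries held 32 different seeds. The only entries that shared a seed were length forms of one miRNA, ssc-miR-127 (22 nt) with miR-127-y (24 nt) and ssc-miR-381-3p (22 nt) with miR-381-y (24 nt). MiR-154-z and miR-411-y have the same sequence and the same count in every library as the entries miR-3958-y and miR-3959-y, which lie outside the set of numbers, so these tags appear in the table under 2 names.

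The cluster was a small part of liver miRNA, and 1 miRNA made up most of it. Summed over the 34 members, 41353 counts were listed in the 12 libraries, which was 0.0149% (Bama cold 3) to 0.116% (Hezuo normal 2) of the listed counts of a library. MiR-381-3p, which in rat neurons takes part in dendrite growth, held 83.4% of these counts. Its share was steady from liver to liver, 83.0% ± 2.12 (SD, n = 12), with a lowest value of 79.8% in Bama cold 1 and a highest of 86.2% in Hezuo cold 1.

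The summed level of the cluster differed up to 7.59-fold between livers. Levels are in CPM, counts per 1000000 of the library size as adjusted by TMM. The sum was 529, 197 and 308 CPM in Bama normal 1, 2 and 3, and 225, 498 and 154 CPM in Bama cold 1, 2 and 3. It was 512, 1168 and 217 CPM in Hezuo normal 1, 2 and 3, and 280, 435 and 329 CPM in Hezuo cold 1, 2 and 3. Hezuo normal 2 stood above all other livers, at 3.79 times the median of the other 11, and the remaining 11 livers overlapped across all 4 groups. Group means were 345 ± 169 CPM (SD, n = 3) in the normal and 292 ± 182 in the cold livers of Bama, and 633 ± 487 in the normal and 348 ± 79.2 in the cold livers of Hezuo. Without Hezuo normal 2 the Hezuo normal mean was 365 CPM, beside 348 in Hezuo cold. The plot of the summed level by group shows the same pattern with miR-381-3p left out, where Hezuo normal 2 was at 3.46 times the median of the other livers.

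**Figure D1:**
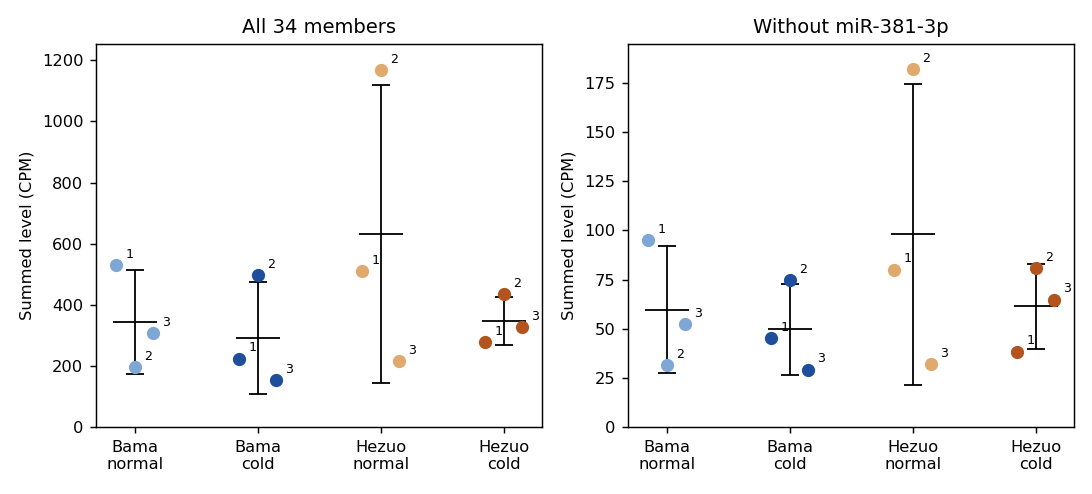
Summed level of the cluster in CPM (linear axis) for all 34 members (left) and without miR-381-3p (right). Coloured points are libraries with their replicate number, and black bars are the group mean ± SD (n = 3). Hezuo normal 2 lies at 1168 CPM on the left and 182 CPM on the right, and the other 11 livers lie between 154 and 529 CPM on the left.

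The levels of the members varied together from liver to liver. In Hezuo normal 2 and in Bama normal 1, each of the 13 tested members was above its own median over the 12 livers. In Bama normal 2 and Bama cold 3, 0 of 13 were above it. The median ratio of a member to its own median was 3.46 in Hezuo normal 2, 1.67 in Bama normal 1, 0.615 in Bama normal 2 and 0.375 in Bama cold 3. Over all 460 tested miRNA entries the same ratio was 1.01, 1.02, 0.998 and 1.01 in these libraries. TMM scales the libraries to a common level over these entries, so a ratio near 1 was largely fixed in advance. For the members, Bama normal 1 and Bama normal 2, which have the same breed and temperature, stood on opposite sides. Of the 13 members, 12 had their highest level in Hezuo normal 2, beside 60 of all 460 tested entries (13.0%). The exception was miR-370, at 4.52 CPM in Bama normal 1 and 4.25 CPM in Hezuo normal 2. Members entered the test only where they reached enough counts, which a high level in 1 group makes easier. Of the 21 members below the filter, 8 were also highest in Hezuo normal 2, the library with the most listed counts (10384074). The same share over the other entries below the filter was not computed, so nothing is read from this count.

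**Figure D2:**
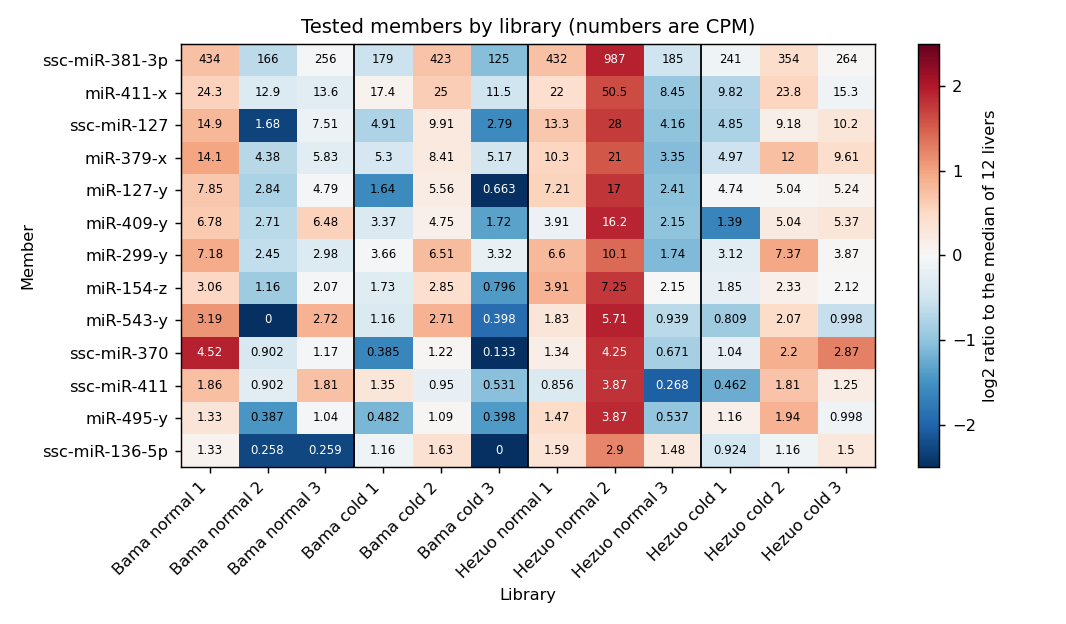
Level of the 13 tested members (rows) in the 12 libraries (columns). Numbers are CPM, and colour is the log2 ratio to the member's median over the 12 livers, limited to ± 2.5, with a level of 0 drawn as 0.1 CPM. The column of Hezuo normal 2 is red in every row, that of Bama normal 1 is above the median in every row, and those of Bama normal 2 and Bama cold 3 are at or below it.

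Variation between livers of one group was larger for the cluster than for most liver miRNAs. The biological coefficient of variation, the spread between libraries of a group beyond counting error, was 38.8% to 82.3% in the 13 tested members, with a median of 54.0%. Over all 460 tested entries the median was 23.2%, and all 13 members were above it. Low counts raise this measure, but miR-381-3p, with a mean of 337 CPM, was at 54.0% as well. Of the 54 entries at least as abundant as miR-381-3p, itself included, it had the highest value, and their median was 14.5%. MiR-451, also among these, was close to it at 50.6%. Outside the cluster and at a lower level than miR-381-3p, miR-10b was at 74.3%, so a wide spread was not confined to the cluster.

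**Figure D3:**
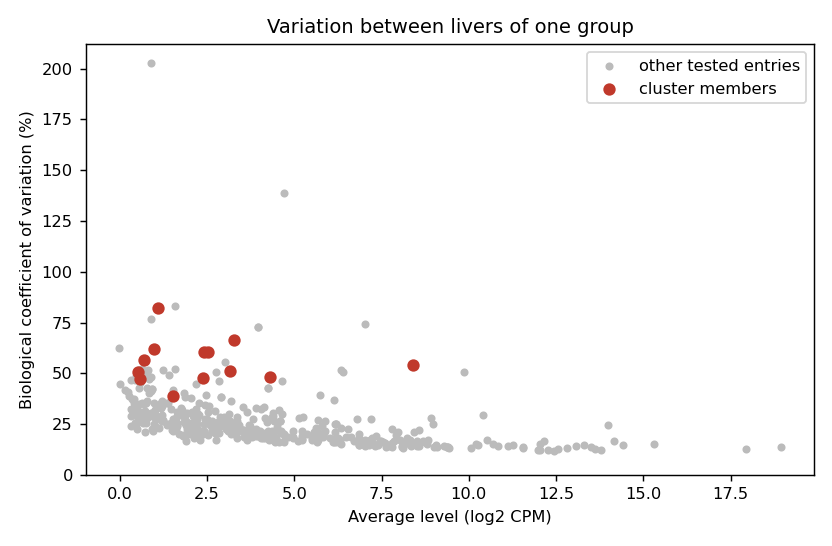
Biological coefficient of variation in percent against average level in log2 CPM for the 460 tested entries. Red points are the 13 tested cluster members, at 38.8% to 82.3%, and grey points are the other entries. The red point farthest to the right is miR-381-3p.

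Cell type markers were set beside the level of Hezuo normal 2. The summed erythroid list (miR-451, miR-144 and miR-486, 9 entries) was at 1892 CPM in Hezuo normal 2, which was 2.04 times the median of the other livers, and 3 of its 5 tested entries were highest there. Its range was 440 to 995 CPM in the normal and 538 to 1343 in the cold livers of Bama, and 632 to 1892 in the normal and 670 to 2449 in the cold livers of Hezuo, and none of its entries was at 0 in Hezuo normal 2. Its highest liver was Hezuo cold 3 at 2449 CPM, where the cluster sum was 329 CPM. Hezuo normal 2 was next, and there the cluster sum was 1168 CPM. In Bama cold 3, the lowest liver for the cluster, the erythroid list was at 1343 CPM. No relation over the 12 livers was computed, and the part of red blood cells in the cluster's level was not tested. The same ratio of Hezuo normal 2 was 0.829 for stellate, fibroblast and smooth muscle markers (17 entries), 0.910 for the endothelial miR-126, 1.22 for myeloid, 1.40 for lymphoid, 1.003 for nervous and endocrine, 0.855 for epithelial (biliary and other) and 0.767 for muscle markers. The hepatocyte list (miR-122, miR-192 and miR-194) was at 1.04 and ranged from 481130 to 805946 CPM over the 12 livers. The defining miRNAs of liver were thus abundant in every library. Since CPM is per adjusted library size, these values are not shares of a library. The X-linked cluster of miR-424, miR-503, miR-450 and miR-542, another long miRNA cluster, was at 0.849 and varied 1.69-fold over the 12 livers. MiRNAs of other imprinted loci (miR-335 of MEST, miR-483 of IGF2 and miR-296 of GNAS, 7 entries) were at 1.23 and varied 2.49-fold. Their highest liver was Hezuo normal 2, as for the cluster, at 42.6 CPM, with Bama normal 1 at 41.0 CPM.

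The block around RTL1 held 4 of the tested entries. MiR-127 lies antisense to RTL1 and in mouse directs cleavage of its mRNA. Its 22-nt form was at 14.9, 1.68 and 7.51 CPM in the normal and 4.91, 9.91 and 2.79 in the cold livers of Bama, and 13.3, 28.0 and 4.16 in the normal and 4.85, 9.18 and 10.2 in the cold livers of Hezuo. The 4 groups overlapped, and the highest and lowest livers differed 16.7-fold. The 24-nt form miR-127-y ends in 2 more bases and was at 7.85, 2.84 and 4.79 CPM in the normal and 1.64, 5.56 and 0.663 in the cold livers of Bama, and 7.21, 17.02 and 2.41 in the normal and 4.74, 5.04 and 5.24 in the cold livers of Hezuo. Both forms had Hezuo normal 2 as the highest and Bama normal 1 as the next highest liver. Of all miR-127 tags, 63.2% were the 22-nt form (953 of 1509 counts, 95% Wilson interval 60.7 to 65.6, counting error only), and in single livers 37.1% to 80.8%. The authors' division of tags between such forms is not given in the sources used here.

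MiR-136, also antisense to RTL1, was counted from both arms. MiR-136-5p was at 1.33, 0.258 and 0.259 CPM in the normal and 1.16, 1.63 and 0 in the cold livers of Bama, and 1.59, 2.90 and 1.48 in the normal and 0.924, 1.16 and 1.497 in the cold livers of Hezuo. A count of 0 in Bama cold 3 allows up to 0.398 CPM. The 5p arm made up 63.7% of miR-136 tags (121 against 69 counts, interval 56.6 to 70.2). In the 11 livers with counts this share ran from 33.3% to 100%. MiR-136-3p did not pass the filter. MiR-370, which in human liver cells acts on fatty acid oxidation through CPT1A, was at 4.52, 0.902 and 1.17 CPM in the normal and 0.385, 1.22 and 0.133 in the cold livers of Bama, and 1.34, 4.25 and 0.671 in the normal and 1.04, 2.20 and 2.87 in the cold livers of Hezuo. The value of 0.133 CPM is 1 count. MiR-493 was counted 20 times for the 3p and 7 times for the 5p arm in all livers together and was not tested.

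The block from miR-379 to miR-656 held the other 9 tested entries. MiR-381-3p was at 434, 166 and 256 CPM in the normal and 179, 423 and 125 in the cold livers of Bama, and 432, 987 and 185 in the normal and 241, 354 and 264 in the cold livers of Hezuo. Each group had livers above and below the median of 259.7 CPM, with Hezuo normal 2 at the top and Bama cold 3 at the bottom. Its 24-nt form miR-381-y had 16 counts in all.

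MiR-411-x, the 5p strand of miR-411, was the next most abundant, at 24.3, 12.9 and 13.6 CPM in the normal and 17.4, 25.0 and 11.5 in the cold livers of Bama, and 22.01, 50.5 and 8.45 in the normal and 9.82, 23.8 and 15.3 in the cold livers of Hezuo. The entry ssc-miR-411 is the opposite strand, at 1.86, 0.902 and 1.81 CPM in the normal and 1.35, 0.950 and 0.531 in the cold livers of Bama, and 0.856, 3.87 and 0.268 in the normal and 0.462, 1.81 and 1.25 in the cold livers of Hezuo. It had 137 counts against 1997, so that 93.6% of the tags of these entries were the 5p strand (interval 92.5 to 94.5). The third miR-411 entry, miR-411-y with 21 counts and a different seed, was not included. That share was 91.5% ± 2.87 (SD, n = 3) in the normal and 94.9% ± 1.85 in the cold livers of Bama, and 95.4% ± 2.17 in the normal and 93.6% ± 1.63 in the cold livers of Hezuo. In single livers the share lay between 88.2% and 96.9%, while the level of miR-411-x differed 5.97-fold. MiR-379-x, which in mouse liver is raised by glucocorticoids and acts on lipid transport, was at 14.1, 4.38 and 5.83 CPM in the normal and 5.30, 8.41 and 5.17 in the cold livers of Bama, and 10.3, 20.98 and 3.35 in the normal and 4.97, 12.02 and 9.61 in the cold livers of Hezuo. Its range was 6.26-fold, with Hezuo normal livers at both ends.

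MiR-409-y, a 3p strand, was at 6.78, 2.71 and 6.48 CPM in the normal and 3.37, 4.75 and 1.72 in the cold livers of Bama, and 3.91, 16.2 and 2.15 in the normal and 1.39, 5.04 and 5.37 in the cold livers of Hezuo. Hezuo normal 2 stood apart for it, at 4.15 times the median of the other livers. MiR-299-y, also a 3p strand, ranged from 1.74 to 10.1 CPM. Of the arms of miR-299 the 3p strand had 493 counts and the 5p strand ssc-miR-299 28, or 5.37% of the tags for the 5p strand (interval 3.74 to 7.66). In single livers that share was 0% to 27.8%. The 5p strand of miR-409 had 17 counts beside 515, or 3.20% (interval 2.00 to 5.06, in single livers 0% to 8.51%), and 12 of the 17 were in Hezuo normal 2. MiR-154-z was at 3.06, 1.16 and 2.07 CPM in the normal and 1.73, 2.85 and 0.796 in the cold livers of Bama, and 3.91, 7.25 and 2.15 in the normal and 1.85, 2.33 and 2.12 in the cold livers of Hezuo. MiR-543-y, which in mouse neural progenitors represses N-cadherin, ranged from 0 CPM in Bama normal 2 to 5.71 CPM in Hezuo normal 2. MiR-495-y was at 1.33, 0.387 and 1.04 CPM in the normal and 0.482, 1.09 and 0.398 in the cold livers of Bama, and 1.47, 3.87 and 0.537 in the normal and 1.16, 1.94 and 0.998 in the cold livers of Hezuo. Its groups overlapped as well.

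The 21 members below the filter had 7 to 69 counts each and 454 together over the 12 livers. These were miR-136-3p (69 counts), miR-758 (54), miR-485-x (30), miR-299 (28), miR-323-y (28), miR-382 (23), miR-487-y (22), miR-380-y (21), miR-411-y (21), miR-493-3p (20), miR-369-x (19), miR-409-x (17), miR-656-y (17), miR-381-y (16), miR-494-y (15), miR-377-y (14), miR-369 (11), miR-412-z (8), and miR-329-y, miR-380-x and miR-493-5p (7 each). A count of 0 in a library allows 0.289 to 0.407 CPM, so at this depth most of these levels lie at or near the limit of detection.

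Shares of the more abundant members were set beside the sum, which without miR-381-3p differed 6.20-fold between livers. Without miR-381-3p, miR-411-x made up 30.3% ± 6.09 of the cluster counts (SD, n = 12), miR-379-x 13.1% ± 2.13, miR-127 12.8% ± 3.22, miR-127-y 7.68% ± 2.67, miR-299-y 7.62% ± 1.75 and miR-409-y 7.19% ± 2.22. In Hezuo normal 2, where the sum was highest, these shares were 27.8%, 11.5%, 15.4%, 9.36%, 5.53% and 8.93%. Scarce members varied more in share, with miR-370 at 0.452% to 4.76%, miR-136-5p at 0% to 4.56% and miR-543-y at 0% to 5.17%. The share of the block around RTL1 was also taken of the counts without miR-381-3p, which belongs to the other block. It was 25.8% ± 5.75 (SD, n = 3) in the normal and 18.6% ± 6.84 in the cold livers of Bama, and 30.8% ± 0.452 in the normal and 29.0% ± 5.63 in the cold livers of Hezuo. Bama cold 3 had the lowest share of this block, at 12.2%, and Hezuo cold 3 the highest, at 32.9%.

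**Figure D4:**
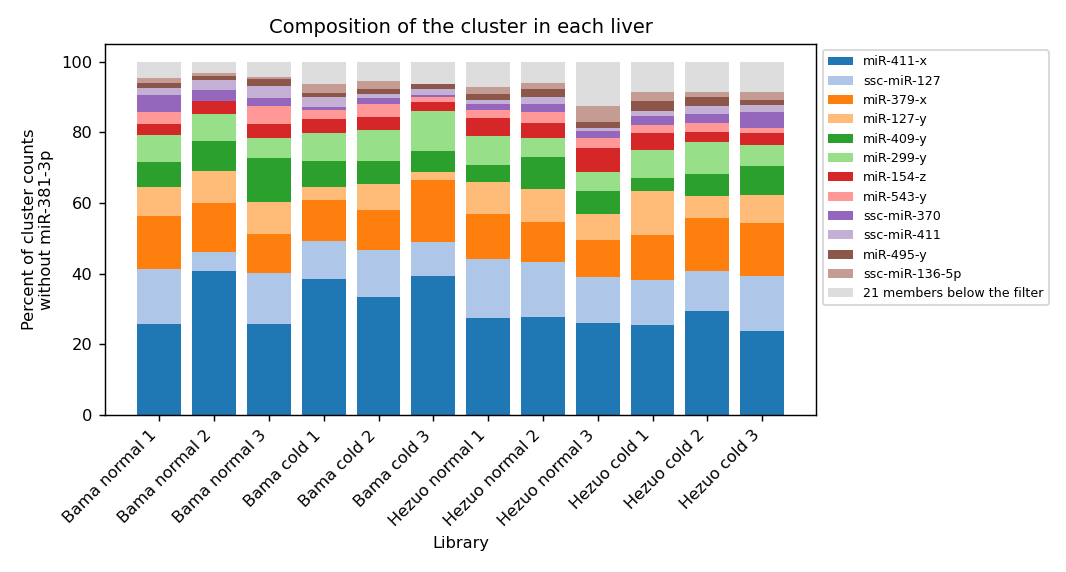
Percent of the cluster counts without miR-381-3p taken by each of the other 12 tested members (colours) and by the 21 members below the filter together (grey), in the 12 libraries. The share of miR-411-x lies between 23.7% and 40.8%, while the counts behind a bar range from 221 in Bama cold 3 to 1881 in Hezuo normal 2.

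What cold did to the cluster was asked first over both breeds, with 6 cold and 6 normal livers. All tests used edgeR's quasi-likelihood test with Benjamini-Hochberg adjustment over the 460 tested entries, and an adjusted p below 0.05 was a call. None of the 13 members was called by edgeR, DESeq2 or limma-voom, where edgeR called 2.17% of all tested entries. DESeq2 gave miR-136-5p no adjusted p here, so that tool could not call this member. At an unadjusted p below 0.05 by edgeR there were 0 of the 13, beside 17.8% of all entries. All 13 estimates were below 0, with a median of -0.61 log2 units, beside -0.03 and 54.8% below 0 over all entries. The members share libraries and move together, so their common sign is not 13 separate observations. MiR-381-3p was at -0.57 (SE 0.47, adjusted p = 0.575), miR-127 at -0.69 (SE 0.57, adjusted p = 0.575), miR-411-x at -0.32 (SE 0.41, adjusted p = 0.684), miR-379-x at -0.38 (SE 0.44, adjusted p = 0.663), miR-127-y at -0.92 (SE 0.53, adjusted p = 0.403) and miR-409-y at -0.82 (SE 0.53, adjusted p = 0.455). The smallest p values belonged to miR-154-z at -0.66 (SE 0.36, adjusted p = 0.353) and miR-370 at -1.01 (SE 0.58, adjusted p = 0.396). With Hezuo normal 2 left out, 8 of 13 estimates were below 0, the median was -0.14 and miR-370 was at -0.44.

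In Hezuo pigs, the breed studied for its cold resistance, 0 of 13 members were called by edgeR, DESeq2 or limma-voom, and 0% of all tested entries were called by edgeR (4 entries, none a member, with the replicate block within breed). All 13 estimates were below 0, with a median of -0.75 beside -0.04 over all entries, and 1 member had an unadjusted p below 0.05, beside 43 of all 460 entries (9.35%). This was miR-154-z at -1.10 (SE 0.49, adjusted p = 0.516). MiR-381-3p had the next smallest p, at -0.90 (SE 0.66, adjusted p = 0.758). The direction rested on Hezuo normal 2. Without it 8 of 13 estimates were above 0, the median was 0.13, miR-381-3p was at -0.07 (SE 0.62) and miR-154-z at -0.51 (SE 0.51, adjusted p = 0.829).

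In Bama pigs 0 of 13 members were called by edgeR, DESeq2 or limma-voom, where edgeR called 1.09% of all tested entries. Of the estimates 10 were below 0 and 3 above, with a median of -0.46 beside -0.01 over all entries. MiR-370 alone had an unadjusted p below 0.05, beside 67 of all 460 entries (14.6%). It was at -1.93 (SE 0.88, adjusted p = 0.335), with means of 2.20 ± 2.02 CPM at normal temperature and 0.580 ± 0.570 under cold (SD, n = 3), and the groups overlapped. Without Bama normal 1 its estimate was -0.88 (SE 0.90, adjusted p = 0.776), and the median of the members was 0.12. MiR-127-y had the next smallest p, at -0.995 (SE 0.77, adjusted p = 0.631). MiR-381-3p was at -0.23 (SE 0.66, adjusted p = 0.926) and miR-136-5p, the member with the highest estimate, at 0.61 (SE 0.85, adjusted p = 0.827).

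**Figure D5:**
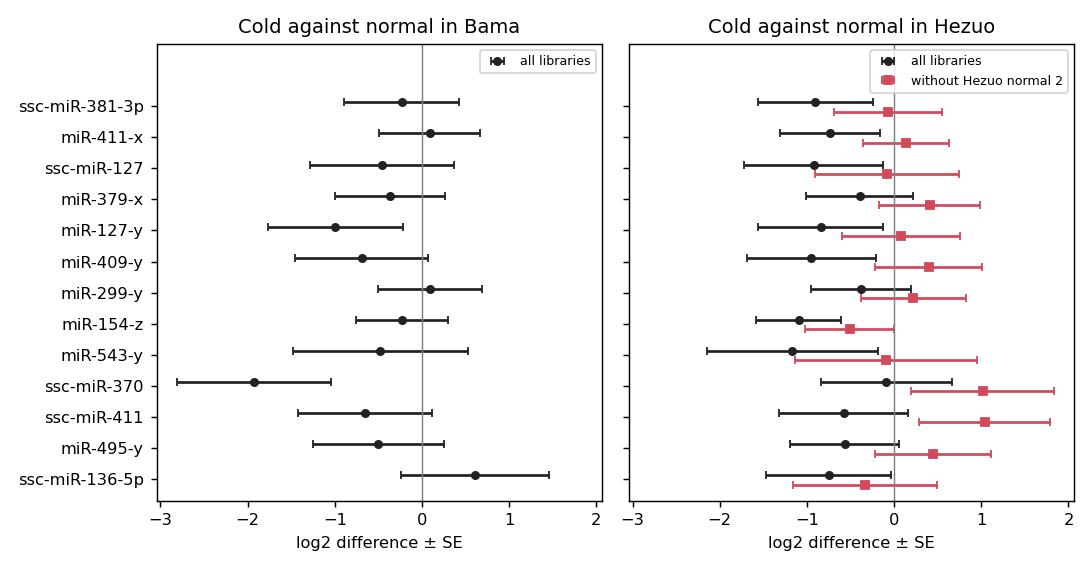
Log2 difference of cold against normal livers with its SE for the 13 tested members, in Bama (left) and Hezuo (right). Black circles use all 12 libraries, and red squares, drawn for Hezuo only, leave out Hezuo normal 2. In Hezuo all 13 circles lie below 0, whereas 8 of the 13 squares lie above it.

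The difference between the cold responses of the breeds was tested as an interaction, and 0 of 13 members were called by edgeR, DESeq2 or limma-voom, where edgeR called 0% of all tested entries. At an unadjusted p below 0.05 there were 0 of the 13 by edgeR, beside 5.43% of all entries. The median was -0.47, with 10 estimates below 0 and 3 above. The smallest p values belonged to miR-370 at 1.84 (SE 1.16) and miR-136-5p at -1.36 (SE 1.11), each with an adjusted p of 0.961. MiR-370 was at 0.83 without Bama normal 1 and 2.91 without Hezuo normal 2, and miR-136-5p at -2.498 without Bama normal 1 and -0.80 without Bama cold 2. Without Hezuo normal 2 the median was 0.36 and 11 of the 13 estimates were above 0. The median was also above 0 without Bama normal 2 (0.042) and without Bama cold 2 (0.099).

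Hezuo and Bama livers were then compared at the same temperature. At normal temperature 0 of 13 members were called by edgeR, DESeq2 or limma-voom, where edgeR called 3.70% of all tested entries. Of the estimates 12 were above 0, with a median of 0.68 beside 0.05 over all entries, and 2 members had an unadjusted p below 0.05, beside 93 of all 460 entries (20.2%). MiR-154-z was at 1.10 (SE 0.49, adjusted p = 0.226) and miR-136-5p at 1.70 (SE 0.79, adjusted p = 0.242). MiR-136-5p was the only member whose groups did not overlap, the lowest Hezuo liver being at 1.48 CPM and the highest Bama liver at 1.33 CPM, and 22.2% of all tested entries did not overlap here. Its level in Bama normal 2 and 3 rested on 2 counts each. This comparison shares the Hezuo normal livers with that of cold in Hezuo. Without Hezuo normal 2 the median was -0.07, with 6 estimates above 0 and 7 below, miR-154-z at 0.56 (SE 0.51, adjusted p = 0.646) and miR-136-5p at 1.34 (SE 0.89, adjusted p = 0.491). Without Bama normal 1, miR-136-5p was at 2.83.

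Under cold 0 of 13 members were called between the breeds by edgeR, DESeq2 or limma-voom, where edgeR called 4.35% of all tested entries. MiR-136-5p again had no adjusted p from DESeq2, so that tool could not call it. At an unadjusted p below 0.05 there were 0 of the 13 by edgeR, beside 15.0% of all entries. The median was 0.26 beside -0.04 over all entries, with 11 estimates above 0 and 2 below. The smallest p belonged to miR-370 at 1.82 (SE 0.88, adjusted p = 0.332), with 0.580 ± 0.570 CPM (SD, n = 3) in Bama cold and 2.04 ± 0.926 in Hezuo cold, followed by miR-495-y at 1.06 (SE 0.71, adjusted p = 0.560). The highest Bama cold liver, at 1.22 CPM, lay above the lowest Hezuo cold liver, at 1.04 CPM, for miR-370. Without Bama cold 3 the median of the members was -0.033, and without Bama cold 2 it was 0.73, with miR-370 at 2.79. The standard errors of the 13 members were 0.52 to 1.04 log2 units in this comparison and 0.36 to 0.70 in that over both breeds. Differences of the size of 1 SE were therefore not detectable at this depth and spread. Estimates well above their SE were not called either, as for miR-370 under cold in Bama at -1.93 (SE 0.88, adjusted p = 0.335 by edgeR). Values that did not pass do not show equal levels.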

How the data were processed

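Per the labels' protocols, total liver RNA (TRIzol) was size-selected to 18 to 30 nt before adapter ligation, and libraries were cut out as a band near 140 bp. The deposited table gives raw tag counts and TPM per library and a sequence for each entry, per the file headers. The authors' TPM values equal the counts divided by 1 constant per library, and were used only for library totals. No source used here gives the aligner, miRNA database, genome build or filters. The content of 2 emptied lines is unknown. The main test was edgeR 4.0.16 (R 4.3.3, TMM scaling, filterByExpr by group with a minimum count of 10, robust quasi-likelihood F tests), 1 coefficient per group over 12 libraries and 460 entries, and the code was tested on simulated data. Standard errors were derived from the F statistics. DESeq2 1.42.0 and limma 3.58.1 were alternatives. Members and lists were chosen with earlier results of these data known. Values in every library are given for the 6 most abundant members, the 2 with the smallest p per contrast and both strands of their hairpins where tested, with others by range. PCR duplicates cannot be recognised, so intervals and limits for a count of 0 (3 counts) cover counting error only.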

Additional observations from a re-analysis of the deposited data

How the results depend on the processing

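In 8 alternatives (DESeq2, limma-voom, DESeq2 size factors, library totals, no filter, identical entries once, and 2 forms of the replicate block) and with each of the 12 libraries left out in turn, 0 members were called in any of the 6 comparisons. The smallest adjusted p of a member was 0.0551, for miR-136-3p between breeds under cold without Bama cold 2, where it passed the filter that it misses with all libraries. The median of the 13 members ranged, with 1 library left out, from -0.85 to -0.14 for cold over both breeds, -0.88 to 0.12 in Bama, -1.10 to 0.13 in Hezuo, -1.03 to 0.36 for the difference of responses, -0.065 to 1.12 between breeds at normal temperature and -0.03 to 0.73 under cold. In the other alternatives it kept its sign in all 6, but with the replicate block by number it was -0.05 for the difference of responses (6 estimates above 0 and 7 below) and 0.40 between breeds at normal temperature, and with the block within breed -0.25 for the difference of responses. The log2 difference of the summed level ranged from -0.74 to -0.13, -0.77 to 0.07, -1.18 to 0.04, -0.88 to 0.34, 0.07 to 1.28 and 0.03 to 0.88 in the same order. Without Hezuo normal 2, ssc-miR-411 (0.21), miR-299-y (0.17), miR-136-5p (0.15), miR-411-x (0.13) and miR-379-x (0.036) turned above 0 for cold over both breeds. With any 1 of the 12 libraries left out, miR-411-x and miR-379-x ranged down to -0.50 and -0.56. The cause was not tested.

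Calls over all entries, 10, 5, 0, 0, 17 and 20 in the same order, were 23, 20, 0, 0, 38 and 25 by DESeq2, 11 at the lowest between breeds at normal temperature (library totals) and 1 in Bama (library totals), and with 1 library left out 5 to 12, 0 to 5, 0, 0, 4 to 24 and 7 to 21. Libraries with the same pig number and breed correlated at 0.00785 to 0.168 in their deviations from the group mean. In 3 of 6 cases the same-numbered cold library was the best match. With 3 cold libraries per breed some such matches arise without pairing, so this cannot decide whether the numbers mark pairs. Since the labels do not say, the numbers were not taken as pairs in the main test. For cold over both breeds the median was -0.58 with the replicate block by number and -0.49 with the replicate block within breed, with 8 and 7 calls over all entries. In Bama the blocks gave 2 and 3 calls and in Hezuo 0 and 4, and neither block gave a call among the members. The block within breed could not be fitted to the comparisons between breeds. Depth limits the 21 members below the filter.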
